A study of Mus musculus with 32 samples.

Results

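Formalin-fixed, paraffin-embedded (FFPE) mouse brain, heart, kidney and liver were compared with the same 4 organs kept Frozen, by the amount of RNA polymerase II (Pol II) on each gene. FFPE organs had been fixed in formalin, embedded in paraffin, freed of paraffin and heated in an extraction buffer before shearing. Frozen organs had been flash frozen, cored in the cold and crosslinked with formaldehyde only after freezing. Preservation and chromatin extraction therefore changed at the same step and cannot be told apart. Both arms then went through the same chromatin immunoprecipitation (ChIP) with an antibody to the C-terminal domain of Pol II. The labels do not state strain, age or sex, or whether an FFPE and a Frozen organ came from 1 animal. The deposited table holds 1 column for each organ and preservation, called a profile here, so the comparison rested on 4 FFPE profiles and 4 Frozen profiles with organ as a block. The labels list 2 libraries behind each such pair of organ and preservation, made with different kits on different dates, and do not say whether a profile is 1 of them or both. With 1 FFPE and 1 Frozen profile per organ, the p-values set each difference against a spread from organ to organ. The fit drew that spread mostly from other genes of a like level, with 19.4 prior against 3 residual degrees of freedom. The SE and p-value of a gene therefore reflect its own spread between organs only in part. The spread mixes differences between organs with technical noise, and it does not measure the spread between animals.

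A gene's level is a log2 CPM, its reads in one profile per scaled total of that profile's reads, so every value is relative to the other genes of the profile. A gene was described when its level was at least 3 in all 4 FFPE or in all 4 Frozen profiles. This kept 18011 of the 27179 genes, of which 15597 met the level in both arms, 1350 through FFPE only and 1064 through Frozen only. The gene just inside the limit was Zglp1, whose lowest level in its better arm was 3.01, and the gene just outside was Efhd1 with 2.95. A gene kept through 1 arm alone is already high there, and the named called genes to which this applies are marked where they are described.

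Pol II ChIP reads over a gene reflect how many polymerases sit on it at the moment of crosslinking. Stress-inducible genes, such as those of heat shock chaperones, carry a paused polymerase near their start and can be loaded with many more within minutes. Chaperones help other proteins to fold. Their genes are driven by heat shock factor 1, which binds repeated GAA units called heat shock elements. Replication-dependent histone genes and most, but not all, small nuclear RNA genes are short, lack introns and are read by Pol II without a poly(A) tail being added to the product.

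The upstream sequences of 3 genes are printed because each gene passed the test as lower in FFPE and belongs to another group: an inducible chaperone, an early feedback phosphatase and a histone gene. Each printed stretch also holds a motif that was searched for, which is not so for every called gene. The 160 bases before Stip1 held no heat shock element core, and those before Vegfa no ACGTG core. Those before the histone genes H2bc18, H2ac19 and H4c8 held no TATAAA box. Each is the 160 bases that end just before the annotated start, 5′ to 3′ on the gene's own strand, from RefSeq on GRCm38.p6. Hspa1b (chr17:34959239-34959398, minus strand) holds a heat shock element core, in capitals, whose first base lies 104 bases before the start. Dusp1 (chr17:26508473-26508632, minus strand) holds a cyclic AMP element core 143 bases before the start. H4c4 (chr13:23581408-23581567, plus strand) holds a TATA box 32 bases before the start.
Hspa1b: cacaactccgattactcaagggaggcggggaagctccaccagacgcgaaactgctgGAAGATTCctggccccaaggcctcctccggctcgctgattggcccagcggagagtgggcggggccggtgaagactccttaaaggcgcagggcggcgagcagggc
Dusp1: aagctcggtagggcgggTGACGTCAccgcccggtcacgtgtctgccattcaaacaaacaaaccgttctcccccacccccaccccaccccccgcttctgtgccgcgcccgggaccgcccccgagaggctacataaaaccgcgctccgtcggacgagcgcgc
H4c4: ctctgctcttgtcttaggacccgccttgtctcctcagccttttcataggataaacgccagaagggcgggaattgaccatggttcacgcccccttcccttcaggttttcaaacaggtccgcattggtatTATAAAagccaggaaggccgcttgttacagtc

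The profiles held between 864816 and 1818524 reads in FFPE and between 1583260 and 2178329 in Frozen organs, with the liver pair the most unequal at 864816 reads in FFPE and 2178329 in Frozen. A median gene had 16 to 38 reads in the FFPE profiles and 29 to 39 in the Frozen ones. Reads on the mitochondrial genome, which Pol II does not transcribe, made up 7.73% in FFPE and 7.73% in Frozen brain, 25.6% in FFPE and 12% in Frozen heart, 19.2% in FFPE and 7.77% in Frozen kidney, and 11.8% in FFPE and 10.1% in Frozen liver. The part of depth and of mitochondrial reads in the results was not tested beyond the scalings named below. Each organ label matched its markers: the 24 hepatocyte genes took 0.463% of reads in FFPE liver and 0.0391% to 0.052% in the other FFPE organs, against 1.81% in Frozen liver. The 23 cardiomyocyte genes took 0.932% in FFPE heart and 1.87% in Frozen heart, the 24 neuronal genes 0.218% in FFPE brain and 0.224% in Frozen brain, and the 26 nephron genes 0.259% in FFPE kidney and 0.364% in Frozen kidney. No member of these 4 lists was at 0 reads in its own organ.

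Few genes separated FFPE from Frozen tissue across all 4 organs, and those that did were mostly lower in FFPE. Of 26758 genes tested with limma (two-sided, Benjamini-Hochberg adjusted p under 0.05), 113 fell in FFPE (0.422%) and 41 rose (0.153%). Among the described genes 110 fell, 100 of them kept through both arms and 10 through Frozen only. Described genes that rose numbered 28, 16 kept through both arms and 12 through FFPE only. The 110 lower genes had a median difference of -1.27 and ran from -3.84 to -0.84, against a median of -0.01 over all genes tested. Their medians by organ were -1.01 (brain), -1.23 (heart), -0.95 (kidney) and -1.80 (liver), and the largest difference was that of liver for 75 genes, of heart for 22, of kidney for 8 and of brain for 5. Over all genes tested, 8.45% were lower in FFPE in every organ and 8.12% were higher in every organ, with no test. A difference below 0 was seen in 13668 of the 26758. At an unadjusted p under 0.05 by limma, 1479 were lower and 1015 higher. These counts and shares over all genes are the background for those of every gene list below.

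These calls rest on sharing the estimate of spread between genes of a like level. With 1 common prior in place of a trend with level, limma called 0 genes in either direction, while 2118 had an unadjusted p under 0.05. They also rest on heart: without the heart pair 13 genes were lower and 8 higher, and without brain, kidney or liver 64 to 82 were lower and 16 to 29 higher. Of the 110 lower described genes, 11 stayed past the threshold whichever organ was left out, as did 7 of the 28 higher ones.

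**Figure D1:**
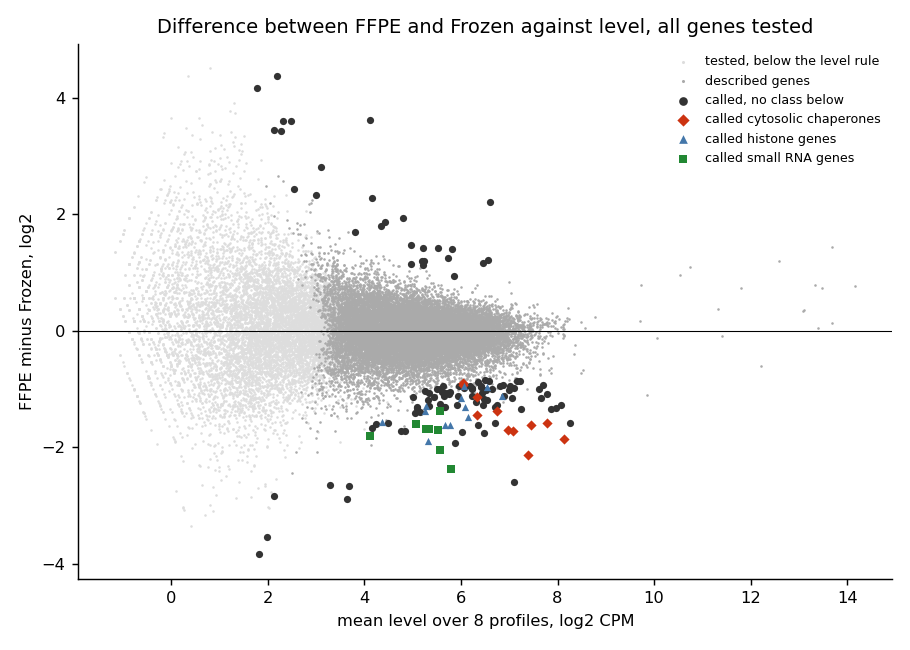
Difference between FFPE and Frozen (log2, vertical axis) against the mean level over 8 profiles (log2 CPM, horizontal axis), 1 point a gene, with described genes that passed the limma threshold drawn large. The 110 lower genes lie mostly at high levels, and the cytosolic chaperones, histone genes and small RNA genes among them all lie below 0.

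Most cytosolic heat shock chaperones were lower in FFPE. All 15 listed genes were measured and described. Of them 11 fell (73.3%, against 0.422% of all genes tested) and none rose. In all 4 organs 13 were lower, against 8.45% of all genes tested. Without heart 4 passed, and without a trend none. The 15 genes had a median difference of -1.38, and the organ medians were -0.65 (brain), -1.51 (heart), -1.05 (kidney) and -1.54 (liver). Together they took 0.108% to 0.127% of reads in the 4 FFPE profiles, against 0.166% in Frozen brain and 0.313% to 0.424% in Frozen heart, kidney and liver. The FFPE organs were thus close to each other. Frozen brain lay above all 4 of them, and the other Frozen organs lay further above. In 6 of the 15 the FFPE and Frozen levels did not overlap, against 3.28% of all genes tested.

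Hspa1b, the inducible Hsp70 chaperone (chromosome 17, 34956429 to 34959238), had levels of 5.51, 6.91, 6.29 and 6.63 in FFPE brain, heart, kidney and liver, against 6.71, 9.27, 8.63 and 9.24 in Frozen brain, heart, kidney and liver. Behind these lay 92, 95, 110 and 92 reads in FFPE and 198, 920, 758 and 1133 in Frozen tissue. Every organ was lower in FFPE, and the groups overlapped only because Frozen brain was below FFPE heart. The fitted difference was -2.13 ± 0.21 (SE, n = 4 and 4 profiles), or 4.37-fold lower, with a limma adjusted p of 1.19e-05. Its neighbour Hspa1a, named here after its values were seen, gave -1.61 ± 0.20 (limma adjusted p = 0.00025). The upstream windows of both genes are the same at 159 of 160 bases and the coding parts are near copies, so how reads were split between them is uncertain.

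Hspa8, the constitutive member of the family, had levels of 7.06, 7.46, 7.67 and 6.65 in FFPE brain, heart, kidney and liver, against 7.64, 9.24, 9.17 and 10.21 in the Frozen organs in the same order. FFPE liver was the lowest of the 8 profiles and Frozen liver the highest. The difference was -1.85 ± 0.29 (limma adjusted p = 0.00221), and the call was lost without heart. Hsph1, which releases ADP from those chaperones, had 6.06, 5.63, 6.50 and 6.69 in FFPE against 7.16, 7.96, 8.16 and 8.50 in Frozen organs. Its groups did not overlap, and it differed by -1.72 ± 0.20 (limma adjusted p = 0.000108). Hsp90aa1, the inducible Hsp90 chaperone, had 6.24, 6.49, 6.27 and 5.48 in FFPE against 7.35, 8.30, 7.42 and 8.20 in Frozen organs, again without overlap (difference -1.70 ± 0.23, limma adjusted p = 0.000456). Hspa1b, Hsph1, Hsp90aa1 and Hspa1a stayed past the threshold whichever organ was left out; with heart out they were the 4 chaperones still called. Hspa4 and Fkbp4, a nucleotide exchange factor and a partner of steroid receptors, had differences of -0.21 and -0.50 that did not pass.

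Other chaperone classes were less uniform. Of 9 mitochondrial chaperones, 2 fell and the list's median was -0.17. Both that fell form the matrix folding chamber, and they lie head to head on chromosome 1. Hspe1, the lid of that chamber (55088148 to 55091317), had levels of 4.09, 5.52, 4.98 and 5.03 in FFPE brain, heart, kidney and liver, against 5.22, 7.75, 6.84 and 7.54 in the Frozen organs. All 4 organs were lower in FFPE, by -1.93 ± 0.23 (limma adjusted p = 0.000136), and the call held whichever organ was left out. Hspd1, the chamber itself, had 5.59 to 6.04 in FFPE and 6.18 to 7.81 in Frozen organs and fell by 1.27 ± 0.23 on the log2 scale (limma adjusted p = 0.00621). Hspa9, which pulls proteins into the matrix, had a difference of -0.17 that did not pass. The annotations of Hspd1 and Hspe1 overlap at their starts, and whether counting used strand is not stated, so reads there cannot be assigned to 1 gene.

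Among 17 DnaJ co-chaperones and TRiC subunits, 2 fell and the median was -0.51. Dnaja1, which hands clients to Hspa8, had 6.93 to 7.51 in FFPE against 7.61 to 9.49 in Frozen organs (difference -1.35 ± 0.22, limma adjusted p = 0.00264), and Dnajb4 differed by -1.12 ± 0.23 (limma adjusted p = 0.0226); neither passed without heart, and nor did Hspb8 or Hspd1. Dnajb2 had -0.77 and did not pass (limma adjusted p = 0.133). Of 7 small heat shock proteins 1 fell: Hspb8, by 1.39 ± 0.29 on the log2 scale (limma adjusted p = 0.0209). Hspb1 and Hspb7 were both higher in FFPE liver than in Frozen liver, at 5.17 against 4.47 and 5.73 against 3.52. In brain, heart and kidney their differences were negative, at -0.76, -1.63 and -1.83 for Hspb1 and -0.47, -0.72 and -0.54 for Hspb7. Heat shock element cores (GAANNTTC or TTCNNGAA, either strand, searched from 250 bases before to 50 after the start) were found in 7 of 14 windows of the cytosolic chaperones and 4 of 6 of the small heat shock proteins. Over all 22246 windows the share was 13.8%, over those of the lower described genes 17.3% (17 of 98) and over those of the higher described genes 28.6% (4 of 14). Windows were at hand for 68.9% of the genes tested, and shares of windows here and below cover only genes that have one.

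**Figure D2:**
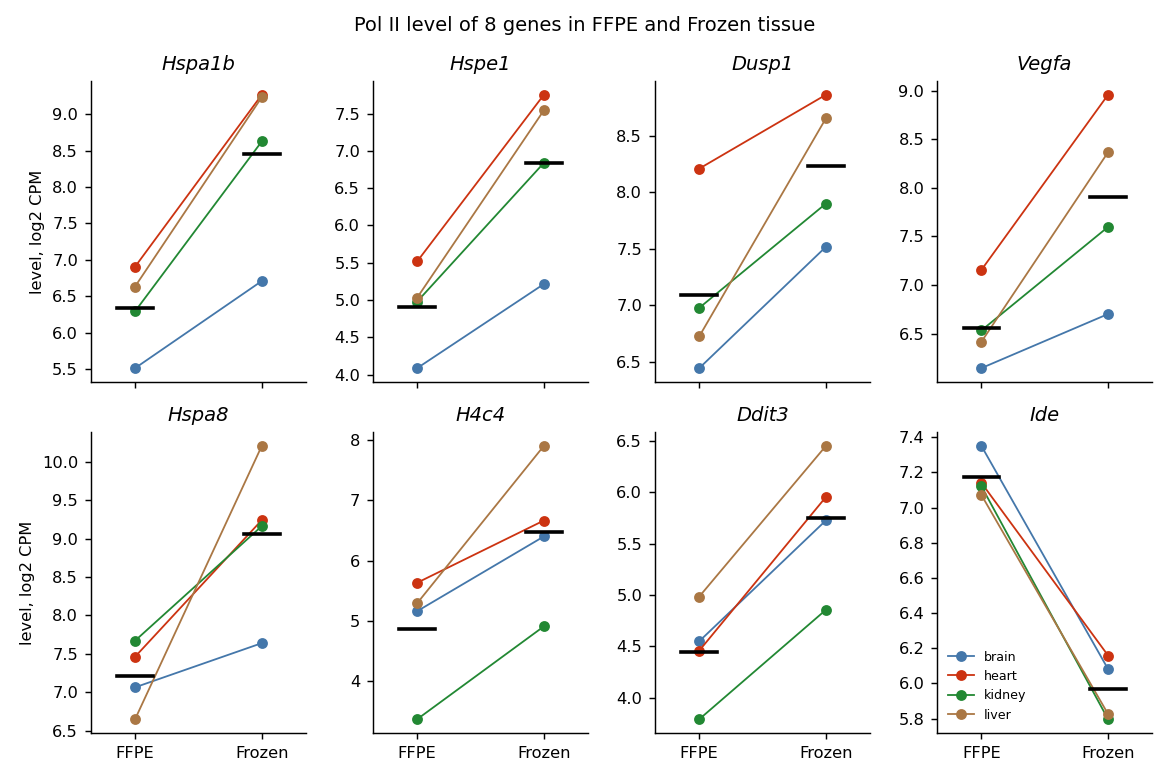
Levels (log2 CPM) of 8 genes in FFPE (left) and Frozen (right) profiles, with 1 coloured line an organ and a black bar at the mean of 4 profiles. For Hspa1b, Hspe1, Vegfa and Hspa8 the Frozen heart, kidney and liver lie above every FFPE profile while Frozen brain does not, and for Ide all 4 FFPE profiles lie above all 4 Frozen ones.

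Genes of the unfolded protein and integrated stress response, which answer misfolded protein in the endoplasmic reticulum, had a median difference of -0.66. Of 21 members 4 fell (19.0%, against 0.422% of all genes tested) and none rose. A difference below 0 was seen in 19, against 13668 of all 26758 genes tested. Ddit3, the stress factor also called CHOP, had 4.55, 4.46, 3.79 and 4.98 in FFPE brain, heart, kidney and liver, against 5.73, 5.96, 4.86 and 6.45 in the Frozen organs. Each organ was lower in FFPE, by 1.30 ± 0.25 on the log2 scale (limma adjusted p = 0.0105), and the call was lost without brain or without heart. Dnajb9 differed by -1.29 ± 0.29, Hspa5, the main chaperone of that compartment, by -1.09 ± 0.24, and Calr, a calcium-binding lectin chaperone, by -0.93 ± 0.21 (limma adjusted p = 0.0408, 0.0383 and 0.0386), and all 3 calls were lost without brain, without heart or without liver. The Hspa5 and Calr calls were also lost with scaling to olfactory and vomeronasal receptor genes (silent receptors below), which these organs are not known to use, and that of Dnajb9 with mitochondrial genes left out. Herpud1 and Hsp90b1 had -0.89 and -0.84 and did not pass. This list's organ medians were -0.29 (brain), -0.45 (heart), -0.36 (kidney) and -1.44 (liver).

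The immediate early genes, which respond within minutes to growth factors, stress or handling, were split. Of 12 AP-1 factors 2 fell (16.7%, against 0.422% of all genes tested). None of the 17 Egr, Nr4a and Klf factors passed in either direction. In that second list 5 genes had an unadjusted p under 0.05 on the lower side and 1 on the higher side. Jund had 7.25, 7.86, 7.20 and 6.92 in FFPE brain, heart, kidney and liver, against 8.24, 9.09, 7.77 and 9.43 in the Frozen organs. FFPE was lower in each organ (difference -1.33 ± 0.24, limma adjusted p = 0.00621), and the call was lost without heart. Jun differed by -0.99 ± 0.21 (limma adjusted p = 0.0318), and its call was lost with any organ left out, with quantile normalization and with scaling to silent receptors. Junb (-0.94) and Fosl2 (-0.32) did not pass, nor did Egr1 (-0.49), which was higher in FFPE than in Frozen heart at 7.24 against 6.66, or Klf9 (-0.73).

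Among 24 early feedback regulators, which switch such signals off again, 3 fell (12.5%, against 0.422% of all genes tested) and the median was -0.57. Dusp1, a phosphatase that inactivates MAP kinases (chromosome 17, 26505591 to 26508472), had 6.44, 8.21, 6.98 and 6.72 in FFPE brain, heart, kidney and liver, against 7.52, 8.86, 7.90 and 8.65 in the Frozen organs. FFPE was lower in every organ, although FFPE heart exceeded Frozen brain and kidney. The difference was -1.15 ± 0.20 (limma adjusted p = 0.00621), lost without brain, without heart or with scaling to silent receptors. Gadd45g, a stress-induced growth arrest gene, had 4.87, 6.43, 6.51 and 6.68 in FFPE against 6.38, 6.83, 7.82 and 8.52 in the Frozen organs (difference -1.27 ± 0.21, limma adjusted p = 0.00399), and held whichever organ was left out. Rhob differed by -0.86 ± 0.19 (limma adjusted p = 0.0417) and was lost without brain, heart or kidney and with each of the 3 alternative scalings (quantile, mitochondrial genes left out, silent receptors). Btg1 (-0.73) did not pass, nor did Zfp36l1 (limma adjusted p = 0.182). Zfp36l1 had 7.18 in FFPE and 10.12 in Frozen liver, but 5.48 in FFPE and 5.37 in Frozen brain. The cyclic AMP element core (TGACGTCA) was found in 3 of 21 windows of this list, against 2.26% of all windows.

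Of 22 hypoxia and glycolysis genes 2 fell and the median was -0.28. Vegfa, the angiogenic growth factor that is induced when oxygen falls (chromosome 17, 46016993 to 46032377), had 6.14, 7.15, 6.53 and 6.41 in FFPE brain, heart, kidney and liver, against 6.70, 8.96, 7.60 and 8.37 in the Frozen organs. Frozen heart, kidney and liver stood above all FFPE profiles, and Frozen brain did not. It differed by -1.35 ± 0.21 (limma adjusted p = 0.00259), and the call was lost without heart. P4ha1, which hydroxylates collagen, had 6.36 to 6.65 in FFPE and 7.10 to 8.14 in Frozen organs, without overlap (difference -1.15 ± 0.21, limma adjusted p = 0.00692), and was also lost without heart. Kdm3a (-0.06) and Bhlhe40 (-0.48) did not pass. The core ACGTG was found in 17 of 30 windows of this list and in 21.0% of all windows.

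Few metal, steroid hormone and clock genes passed. Mt2, a metal-binding metallothionein, had 3.81, 4.28, 3.71 and 4.15 in FFPE brain, heart, kidney and liver, against 5.15, 6.16, 5.34 and 6.19 in the Frozen organs, and its groups did not overlap. It fell by 1.72 ± 0.27 on the log2 scale (limma adjusted p = 0.002) but did not pass without heart, and Mt1 beside it had -0.84 and did not pass. Of 17 glucocorticoid and FoxO targets 1 fell, Errfi1, an inhibitor of the EGF receptor, by 1.28 ± 0.26 on the log2 scale (limma adjusted p = 0.0173), a call lost without heart or kidney or with scaling to silent receptors. It overlaps 1700045H11Rik, so its reads cannot be assigned to 1 gene. Sgk1 had -0.37 and did not pass. None of the 17 clock genes passed in either direction, none had an unadjusted p under 0.05, and their median was -0.13. Per1 had 7.75, 8.24, 8.06 and 7.29 in FFPE against 7.92, 8.11, 7.72 and 7.28 in the Frozen organs, a difference of 0.08 ± 0.18.

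**Figure D3:**
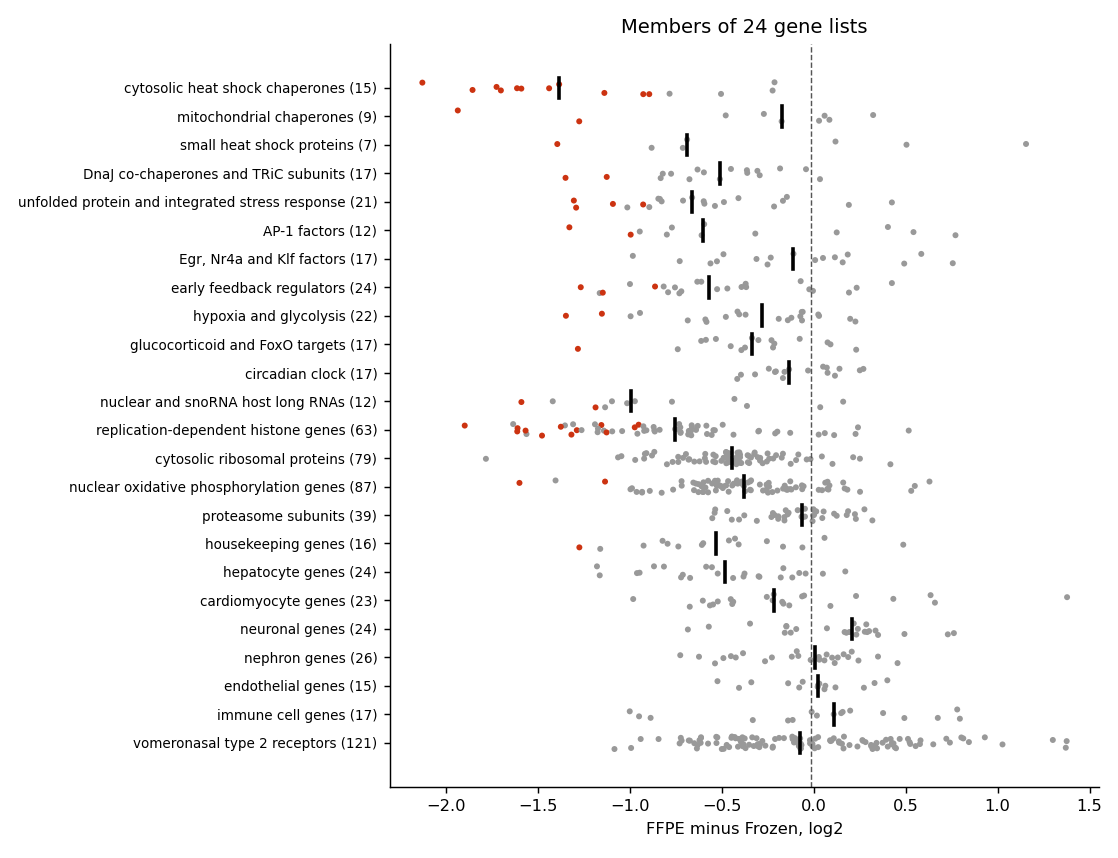
Difference between FFPE and Frozen (log2) for every tested member of 24 gene lists, with the number tested in brackets, the list's median as a black bar and the median of all genes tested as a dashed line; red points were lower at a limma adjusted p under 0.05. The cytosolic chaperones have their median at -1.38, while clock, proteasome, nephron, endothelial and immune lists have theirs between -0.13 and 0.11.

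The replication-dependent histone genes held 12 of the lower calls. Of 63 tested, 12 fell (19.0%, against 0.422% of all genes tested) and none rose. A difference below 0 was seen in 57, against 13668 of all 26758 genes tested. In every organ 32 were lower, against 8.45% of all genes tested. The list's median was -0.75, with organ medians of -0.50 (brain), -0.74 (heart), -0.32 (kidney) and -1.82 (liver). H4c4 (chromosome 13, 23581568 to 23581969) had 5.16, 5.63, 3.36 and 5.29 in FFPE brain, heart, kidney and liver, against 6.40, 6.67, 4.91 and 7.91 in the Frozen organs. Kidney was the lowest organ in both arms, and FFPE was lower in each organ, by 1.61 ± 0.25 on the log2 scale (limma adjusted p = 0.00197). It was the 1 histone gene still called without heart; 7 were called without brain and 6 without liver. H4c18, H2bc18 and H2bc3 differed by -1.90 ± 0.33, -1.61 ± 0.26 and -1.57 ± 0.35 (limma adjusted p = 0.0055, 0.00315 and 0.0422). H2bc3 was kept through Frozen alone, and its call was lost with mitochondrial genes left out. H1f2, a linker histone, had -0.91 and did not pass (limma adjusted p = 0.066). These genes are close copies of each other, clustered on chromosomes 13 and 3 among others, so reads may be shared between them. A TATAAA box was found in 34 of 59 windows of the histone genes and in 12.4% of all windows.

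Small RNA genes were also among the lower genes, 5 of them nucleolar RNAs of ribosomal RNA processing (4 copies of Snord3b, or U3, and Snord14c) and 3 of the splicing machinery (Rnu1a1, Rnu2-10 and Rnu11). Of 137 small nuclear and other small RNA genes tested 23 were described, 8 fell (5.84%, against 0.422% of all genes tested) and none rose. Over all 17 genes that the annotation calls snRNA, 7 fell and the median was -1.20. Over the 115 that it calls snoRNA, 1 fell and the median was -0.23, so its classes differ from the split into 5 and 3 used here. Rnu1a1 and the 4 Snord3b copies lie in 1 run of neighbours on chromosome 11. Rnu1a1, a copy of the U1 RNA that marks the start of introns (chromosome 11, 87422867 to 87423030), had 5.18, 5.77, 3.63 and 3.86 in FFPE brain, heart, kidney and liver, against 7.04, 6.94, 6.01 and 7.97 in the Frozen organs. The groups did not overlap. Its difference was -2.38 ± 0.31 (limma adjusted p = 0.000374). Rnu2-10, a copy of the U2 RNA, differed by -2.04 ± 0.30 (limma adjusted p = 0.00122), and both held whichever organ was left out. Snord3b3 and Snord14c differed by -1.71 ± 0.36 and -1.81 ± 0.41 and were lost without heart, kidney or liver, and Snord14c also with mitochondrial genes left out. Snord3b3 has near copies beside it and Snord14c lies inside Hspa8, so their own reads cannot be told apart from those of the neighbours.

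Among 12 nuclear and snoRNA host long RNAs, 2 fell and the median was -0.99. Neat1, the RNA that builds paraspeckles, had 5.95, 8.89, 7.92 and 7.10 in FFPE brain, heart, kidney and liver, against 6.18, 10.21, 9.26 and 10.56 in the Frozen organs. Brain differed by the least and liver by the most, and the fitted difference was -1.59 ± 0.31 (limma adjusted p = 0.0124), lost without heart or kidney. Zfas1, a host of small nucleolar RNAs, differed by -1.19 ± 0.21 (limma adjusted p = 0.00624), lost without brain or heart. Malat1, a nuclear RNA of splicing speckles, had 9.55, 9.89, 9.58 and 8.21 in FFPE against 9.92, 10.54, 10.43 and 10.72 in the Frozen organs, without overlap. Its difference of -1.10 ± 0.28 did not pass (limma adjusted p = 0.0898), though it did with mitochondrial genes left out, with quantile normalization or with voom weights. Kcnq1ot1, an imprinted antisense RNA, had 0.16 and did not pass.

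Few genes of the basic machinery of the cell passed the test. None of 79 cytosolic ribosomal protein genes passed by limma, yet 74 had a difference below 0, 20 had an unadjusted p under 0.05 on the lower side and 0 on the higher side, and the median was -0.44. Over all 26758 genes tested, 13668 had a difference below 0. Rpl3 and Rps15a had -0.47 and -0.30. Of 87 nuclear genes of oxidative phosphorylation 2 fell, Ndufa6 by 1.60 ± 0.33 and Atp5d by 1.13 ± 0.26 on the log2 scale (limma adjusted p = 0.0223 and 0.0419), and the median was -0.38. Atp5d was lost with any organ left out and with scaling to silent receptors, Ndufa6 with any organ left out but liver, and both with mitochondrial genes left out. Ndufa6 was kept through Frozen alone. Of 16 housekeeping genes 1 fell, the ubiquitin gene Ubb, which also answers heat shock. Ubb had 4.64, 5.63, 5.49 and 5.41 in FFPE against 6.33, 6.86, 5.96 and 7.10 in the Frozen organs, without overlap (difference -1.27 ± 0.23, limma adjusted p = 0.00624), and the call was lost without brain or heart. Actb, the actin gene often used as a reference, had differences of 0.01 (brain), -0.45 (heart), -0.69 (kidney) and -1.81 (liver). Its fitted difference of -0.73 did not pass. Proteasome subunits, translation factors, and SR and hnRNP splicing factors had medians of -0.07, -0.13 and -0.34, with none of 39, 71 and 32 members past the threshold. Unadjusted p under 0.05 was met on the lower side by 3, 8 and 11 of them, and on the higher side by 0, 2 and 0. Over all 26758 genes tested, 1479 met it on the lower side and 1015 on the higher side. None of 19 sterol synthesis genes and none of 15 imprinted genes passed, with medians of -0.22 and 0.07; 4 and 0 had an unadjusted p under 0.05 on the lower side and 0 and 0 on the higher side.

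Genes that mark cell types showed no call across the organs. Hepatocyte, cardiomyocyte, neuronal and nephron genes each mark a single organ, and this fit averaged the difference over all organs. It could therefore miss a change confined to the marked organ, and the lack of calls does not show that these lists were unchanged there. With liver set against the other organs (below), 10 of the 24 hepatocyte genes were called more negative. In the hepatocyte, cardiomyocyte, neuronal, glial, nephron, endothelial, immune, erythroid, fibroblast, and muscle, adipocyte and pancreas lists, none of the 184 members tested passed by limma in either direction. Their medians were -0.48, -0.22, 0.21, 0.24, 0.01, 0.02, 0.11, -0.01, 0.00 and -0.03. On the lower side 13 members had an unadjusted p under 0.05, 7 of them hepatocyte genes, and on the higher side 5. Over all 26758 genes tested these counts were 1479 and 1015, so the 184 members lay near the background. Immune genes took 0.0285% to 0.0395% of reads in FFPE and 0.0257% to 0.0417% in Frozen organs, and endothelial genes 0.0517% to 0.12% in FFPE and 0.0474% to 0.157% in Frozen organs. Erythroid genes took 0.00693% to 0.0123% in FFPE and 0.00493% to 0.013% in Frozen organs, and fibroblast genes 0.061% to 0.0924% in FFPE and 0.0636% to 0.114% in Frozen organs. The muscle, adipocyte and pancreas list took 0.0259% to 0.0428% in FFPE and 0.024% to 0.0475% in Frozen organs. Very long genes, such as the neuronal adhesion gene Cntnap2, had a median of -0.03 over 16, of which none passed and 2 had an unadjusted p under 0.05, both on the lower side. Within single organs, with no test, the hepatocyte median was -2.25 in liver and between -0.28 and 0.39 elsewhere, and the cardiomyocyte median was -0.94 in heart and between -0.13 and 0.29 elsewhere. The neuronal median was -0.07 in brain and the nephron median -0.14 in kidney. Ttn, the giant spring of the sarcomere, had 12.32 in FFPE heart and 13.01 in Frozen heart, and the calcium pump gene Atp2a2 had 9.68 in FFPE heart and 10.48 in Frozen heart. Gria2, a glutamate receptor subunit, had 7.32 in FFPE brain and 7.29 in Frozen brain, and Camk2a, a kinase of excitatory neurons, had 7.12 in FFPE brain and 6.87 in Frozen brain. Lrp2, which takes up filtered protein in the proximal tubule, had 9.20 in FFPE kidney and 9.41 in Frozen kidney. Each of these 5 was highest in its own organ in both arms, and none passed across the organs. In whole tissue, fewer cells of a type and less Pol II per cell cannot be told apart.

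Liver was the organ whose difference departed from the others. Each such comparison set 1 difference against 3. The spread of the lone organ was therefore not estimated and was assumed to be like that of the others. Over the described genes the differences had a standard deviation of 0.50 (brain), 0.71 (heart), 0.56 (kidney) and 0.83 (liver). The part of this wider spread in the liver calls was not tested. Setting each organ's difference against the mean of the other 3 with limma, 112 genes were more negative in liver (0.419%) and 30 more positive (0.112%). For brain, heart and kidney 0 genes passed. At an unadjusted p under 0.05, brain had 170 more negative and 227 more positive, heart 802 and 837, kidney 600 and 426, and liver 1813 and 1216. Only 15 of the liver genes were also among those lower across all organs. With quantile normalization, which gives every profile the same distribution, 2 genes were more negative in liver and 4 more positive. With mitochondrial genes left out the counts were 62 and 77, with scaling to silent receptors 41 and 4, and with a common prior 0 and 0. Without heart 534 were more negative and 262 more positive, and without kidney 172 and 55. By total reads FFPE liver was also the shallowest profile and Frozen liver the deepest. By the scaled totals FFPE heart was the shallowest, at 796629 against 932172 in FFPE liver. FFPE brain was then the deepest, at 2029210 against 1877878 in Frozen liver. The part of depth in these calls was not tested.

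Of the 24 hepatocyte genes, 10 were more negative in liver, among them the plasma protein genes Fgg, Apoa1, Ahsg, Fga, Alb, Trf and Apob. Apob, the protein of very low density lipoprotein, had 6.33, 6.10, 6.39 and 8.98 in FFPE brain, heart, kidney and liver, against 6.28, 5.68, 6.63 and 10.96 in the Frozen organs. It was highest in liver in both arms and lower in FFPE there alone by more than 1 log2 unit. Its liver difference departed from the other organs by -2.06 ± 0.38 (limma adjusted p = 0.00511). Other classes with liver calls were 6 small RNA genes, 4 histone genes, 4 glucocorticoid and FoxO targets, 3 genes of the unfolded protein response (Herpud1, Hspa5 and Hsp90b1) and 2 each of the cytosolic chaperones (Hspa8 and Hsp90ab1), early feedback regulators (Zfp36l1 and Zfp36) and nuclear long RNAs (Neat1 and Malat1). The AP-1, Egr, translation factor and sterol lists held 1 each (Jund, Ier2, Eif1 and Insig1). Of the lists, small heat shock proteins (Hspb1 and Hspb7), muscle genes (Acta1) and olfactory receptors (Olfr441) had members among the 30 that were more positive. The strongest liver call among the named genes was 1600014C10Rik, a gene of unnamed function, with 5.43, 5.93, 5.45 and 6.40 in FFPE against 7.03, 6.70, 8.18 and 11.68 in the Frozen organs. Its reads in liver were 78 in FFPE and 6139 in Frozen tissue. It was lower in FFPE across the 4 organs too, by 2.60 ± 0.40 on the log2 scale (limma adjusted p = 0.00197).

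**Figure D4:**
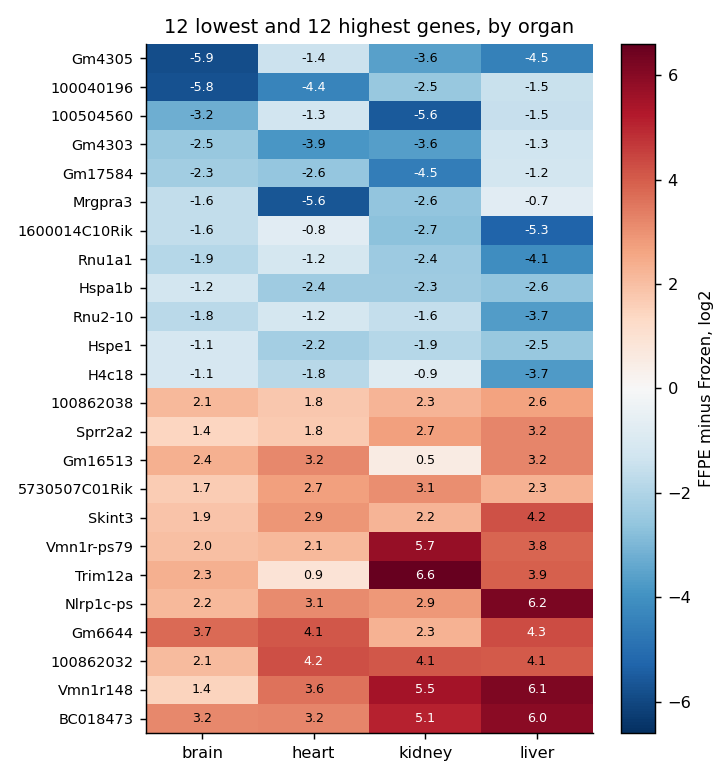
Difference between FFPE and Frozen (log2) by organ for the 12 lowest and 12 highest described genes that passed the limma threshold with the same sign in 4 organs; blue is lower in FFPE and red higher. The value printed for 1600014C10Rik is far lower in liver than in the other organs, whereas Hspa1b is lowest in heart, kidney and liver and smaller in brain.

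The lowest described genes included several with few reads. Gm4305 and Gm4303, neighbouring near copies on chromosome 10, differed by -3.84 ± 0.72 and -2.83 ± 0.63, Gm17584 by -2.66 ± 0.46, and Mrgpra3, a sensory receptor of the itch pathway, by -2.65 ± 0.59 (limma adjusted p = 0.0104, 0.0408, 0.00529 and 0.0386). The rows 100040196 and 100504560, which carry no symbol, differed by -3.53 and -2.89. All 6 were kept through Frozen alone. Their lack of overlap between the arms partly follows from the level limit and from their choice by the same test. An FFPE profile with 0 reads was seen in 4 of them, so that the size of those differences depends on the 0.5 reads added. The call of each of the 6 was lost without kidney, and those of Gm4303 and Mrgpra3 with mitochondrial genes left out. Of the other members of the 12, 1600014C10Rik, Rnu1a1, Hspa1b, Rnu2-10 and Hspe1 held whichever organ was left out.

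Genes higher in FFPE were fewer and of another kind. The 28 described ones had a median difference of 1.83, all 28 were higher in every organ and 26 did not overlap. The 28 were chosen by the same test, which favours a steady sign and separated arms, so these counts largely follow from that choice. As 12 of them were kept through FFPE alone, the counts also partly follow from the level limit. Over all genes tested, 8.12% were higher in every organ and 3.28% did not overlap in either direction, with no test. Among the top 12, 11 were kept through FFPE alone, all but row 100862038, and 5 had a Frozen profile with 0 reads. Of these 12, 2 rows have no symbol. Row 100862038 had 7.83, 7.65, 7.59 and 7.76 in FFPE brain, heart, kidney and liver, against 5.68, 5.86, 5.34 and 5.12 in the Frozen organs (difference 2.21 ± 0.20, limma adjusted p = 2.79e-06). It varied little among the organs of an arm. Row 100862032 had 5.01, 6.12, 6.07 and 6.54 in FFPE against 2.93, 1.88, 1.97 and 2.48 in Frozen organs (difference 3.62 ± 0.38, limma adjusted p = 2.41e-05). Both held whichever organ was left out.

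BC018473 had 24, 27, 37 and 15 reads in FFPE brain, heart, kidney and liver, against 2, 5, 1 and 0 in the Frozen organs, a difference of 4.37 ± 0.64 (limma adjusted p = 0.00127) whose size depends on the 0.5 reads added to every count. Vmn1r148, a vomeronasal pheromone receptor gene that these organs are not known to use, had 33, 9, 16 and 17 reads in FFPE against 11, 1, 0 and 0 in the Frozen organs (difference 4.16 ± 0.75, limma adjusted p = 0.00652). Of 227 vomeronasal type 1 receptors tested 5 were described. In all, 10 rose (4.41%, against 0.153% of all genes tested), of which Vmn1r148 was the 1 described. The list's median was 0.38, with organ medians of 0.67 (brain), 0.90 (heart), 0.26 (kidney) and 0.61 (liver). A gene without a read in either arm would itself differ by -0.10 (brain), 0.90 (heart), 0.44 (kidney) and 1.01 (liver). The part of unequal depth in medians of lists with few reads was not tested. None of 121 type 2 receptors and none of 1126 olfactory receptors passed in either direction, with medians of -0.07 and -0.11 and with 3 and 38 at an unadjusted p under 0.05 on the higher side and 2 and 41 on the lower side. Over all 26758 genes tested, 1015 met that p on the higher side and 1479 on the lower side. Skint3, a surface protein of skin epithelium, rose by 2.81 ± 0.50, Sprr2a2, of the cornified skin layer, by 2.28 ± 0.36, and Trim12a, of an antiviral family, by 3.45 ± 0.74 on the log2 scale (limma adjusted p = 0.00621, 0.00264 and 0.0318), and of these Sprr2a2 held whichever organ was left out. Nlrp1c-ps, Gm6644 and Vmn1r-ps79 are annotated as pseudogenes, and they rose by 3.60, 3.60 and 3.42; all 3 calls, and that of Vmn1r148, were lost without heart. Gm16513 and 5730507C01Rik rose by 2.32 and 2.43 and were lost without heart, among other organs. Families such as Sprr2a, Vmn1r and the zinc finger genes near Zfp992 hold near copies, so read assignment is uncertain.

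Some called genes lay near each other. Of the 104 lower genes with a position, 37 fell into 14 runs of called neighbours no more than 500 kb apart, and of 23 higher genes 12 fell into 6 runs. Runs could hold genes that were not called, up to 31 tested genes in a lower run; 5 lower runs of 13 genes and 3 higher runs of 6 held none. Those 5 were Hspd1 with Hspe1, Hspa1a with Hspa1b, Gm4303 with Gm4305, Errfi1 with 1700045H11Rik, and Rnu1a1 with the Snord3b copies. A pair on chromosome 19, named here after its values were seen, rose. Ide, the insulin-degrading enzyme (37268743 to 37334544), had 7.35, 7.14, 7.12 and 7.07 in FFPE brain, heart, kidney and liver, against 6.08, 6.16, 5.80 and 5.83 in the Frozen organs. The arms did not overlap and differed by nearly the same amount in each organ, 1.21 ± 0.19 (limma adjusted p = 0.002). Fgfbp3, which carries fibroblast growth factors (36917550 to 36919599), had 5.96, 6.36, 6.27 and 6.40 in FFPE against 4.14, 5.46, 4.75 and 4.94 in the Frozen organs (difference 1.43 ± 0.23, limma adjusted p = 0.00271). Between them Btaf1 (0.40), Cpeb3 (0.03) and Marchf5 (-0.18) did not pass, and 4931408D14Rik, just before Ide, had 0.96 (limma adjusted p = 0.113). Ide and Fgfbp3 held whichever organ was left out but did not pass with scaling to silent receptors.

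Another pair lay on chromosome 17. Glo1, which clears methylglyoxal (30592861 to 30612659), had 4.80, 4.54, 4.57 and 5.84 in FFPE brain, heart, kidney and liver, against 5.71, 5.58, 5.77 and 7.71 in the Frozen organs. FFPE was lower in each organ, by 1.26 ± 0.23 on the log2 scale (limma adjusted p = 0.00764). Dnah8, an axonemal dynein gene next to it (30626935 to 30875762), had 6.78, 6.38, 6.53 and 7.19 in FFPE against 7.71, 7.29, 7.68 and 7.64 in the Frozen organs (difference -0.86 ± 0.19, limma adjusted p = 0.034). Without heart, neither passed, and Dnah8 was lost with each of the 3 alternative scalings. The genes on either side, Btbd9 (-0.29) and Glp1r (-0.65), and 1700097N02Rik (-0.58) between them did not pass. As background, the Glo1 and Ide regions are known to vary in copy number among laboratory mice. The input profiles were not analysed here, and the part of copy number in these 4 differences was not tested.

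Short genes held most of the lower calls. The 104 lower described genes with a position had a median length of 4162.5 bp, and 68 were under 10 kb. Over the 17439 described genes with a length, the median was 22554 bp and 4585 were under 10 kb. The 50 lower described genes with a position that belong to no list had a median of 7873 bp, with 27 under 10 kb. In the top quartile of tested genes by mean level, the quartile of shortest genes (up to 15595 bp) held 62 of the lower calls and had a median difference of -0.20. The next quartiles held 13, 3 and 2 lower calls, with medians of -0.08, -0.02 and 0.02. In liver those 4 medians were -0.49, -0.26, -0.16 and -0.04. In brain they were -0.14, 0.01, 0.03 and 0.06. By level alone, the 4 quartiles of tested genes from low to high held 5, 8, 18 and 82 lower calls and 20, 6, 8 and 7 higher calls. The part of length and of level in the class results was not tested.

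**Figure D5:**
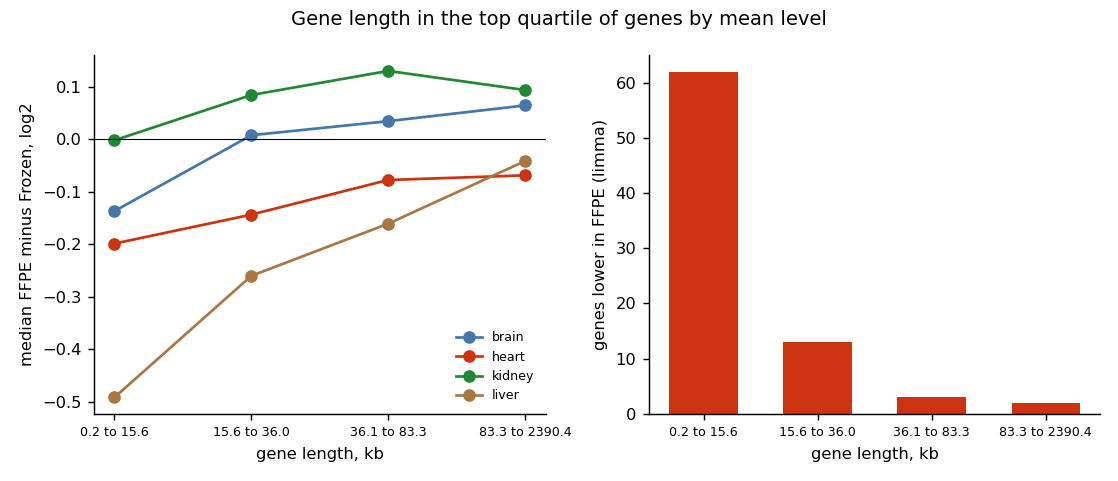
In the top quartile of genes by mean level, split into 4 length classes (kb, horizontal axes): the median difference between FFPE and Frozen (log2) in each organ on the left, and the number of genes lower in FFPE at a limma adjusted p under 0.05 on the right. The count falls over the classes as 62, 13, 3 and 2, and the liver medians run from -0.49 to -0.04.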

How the data were processed

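Reads of the Pol II libraries were aligned with Bowtie2 on mm10 and summed over genes by featureCounts, and limma was used after that, per the submitters' processing notes. Versions and the strand setting are not stated there. The deposited log2 values, as the authors left them, step in whole reads plus 0.5 over a scaled library total, so depths were read back from them (100% whole within a relative 1e-06). No other columns of values were present. Of 27179 rows 1275 had no symbol, and 25275 matched RefSeq positions on GRCm38.p6.

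Genes that reached a log2 value of 0 in 2 or more profiles were fitted with limma 3.58.1 in R 4.3.3 (organ and preservation as terms, empirical Bayes with a trend, 3 residual and 19.4 prior degrees of freedom), after a check on simulated data. Alternatives changed the filter, trend, organ term, scaling, reads added and organs kept. The mitochondrial list was limited to the 15 genes on that chromosome. A GC check was void, since only 68.9% of genes had a promoter window.

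Named genes are Hspa1b, Hspe1, Dusp1 and Vegfa; the 12 lowest and 12 highest called described genes with 1 sign in all organs; up to 4 called and 2 uncalled members of each list, by size of difference and by level; and up to 2 genes per organ with the largest organ difference. Others are said to be named after their values were seen, or are list members and neighbours given to complete a count. The members and lists were chosen with earlier results of these data known. Some named genes are not reported here.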

Additional observations from a re-analysis of the deposited data

Results flagged for a closer look

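Of 96 named genes, 19 had a liver difference between FFPE and Frozen that departed from the mean of the other 3 organs past the limma threshold, against 0.419% more negative and 0.112% more positive over all genes tested. The named genes were not chosen independently of this, since 2 of the 19 (Gm19521 and Lrfn2) were named for their organ difference and most others for a large difference that includes liver. The departures on the more negative side were -4.83 for Gm19521, -3.58 for 1600014C10Rik, -3.06 for Snord3b3, -2.59 for Zfp36l1, -2.50 for Neat1, -2.46 for H4c18, -2.31 for Rnu1a1, -2.28 for Hspa8, -2.17 for Rnu2-10 and -2.06 for Apob. Smaller ones were -1.89 for Malat1, -1.86 for Errfi1, -1.76 for Herpud1, -1.74 for Hspa5, -1.72 for Hsp90b1 and -1.58 for Jund. Those on the more positive side were 5.40 for Lrfn2, 2.79 for Hspb7 and 2.11 for Hspb1. Lrfn2 had 9 reads in FFPE liver and 0 in Frozen liver, and Gm19521 had 0 in FFPE liver and 30 in Frozen liver, so the size of both depends on the 0.5 reads added. In every case liver was 1 difference against 3, so its own spread was not estimated.

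For 7 of the 96 named genes 1 organ's difference stood far from the other 3. Chance gives this in about 1 in 20 groups of 4, so several of the 7 may be chance. In liver the single values were 5.26 for Lrfn2, 2.21 for Hspb7, -2.21 for Herpud1, -1.97 for Jun, -1.73 for Klf9 and -0.26 for Per2. In brain it was 2.08 for the row 100862032, which was higher in FFPE by more in the other organs.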

How the results depend on the processing

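No paired analysis was possible because the columns carry no replicate number; the fit matched profiles by organ instead. No named call turned round under any setting run. Without a trend the count of lower genes was 0, of higher genes 0, and of lower chaperones, histone genes and small RNA genes 0 each. Without an organ term 0 genes were lower and 2 higher, and those 3 lists had 0. With voom weights 246 genes were lower (211 described) and 63 higher. With no filter on low values 5 small RNA genes were lower. With 1 organ left out, 13 to 82 genes were lower (13 to 81 described) and 8 to 29 higher (8 to 27 described); 4 to 9 chaperones, 1 to 9 histone genes and 2 to 9 small RNA genes were lower. For liver against the other organs, more negative and more positive calls were 0 and 0 without a trend, 2 and 4 with quantile normalization, 62 and 77 with mitochondrial genes left out, 41 and 4 when scaled to silent (olfactory and vomeronasal) receptor genes, and 96 to 534 and 19 to 262 with 1 organ left out. Heart had 8 more negative calls when scaled to silent receptors, and 0 to 35 more negative and 1 to 23 more positive with 1 organ left out; kidney had 0 to 2 more negative. Leaving out mitochondrial genes moved the median of all genes by 0.12 and scaling to silent receptors by -0.18. Of 59 named calls, 56 held with quantile normalization, 50 without mitochondrial genes (Gm4303, Snord14c, Rhob, Dnah8, Mrgpra3, Dnajb9, H2bc3, Atp5d and Ndufa6 did not), 49 when scaled to silent receptors (Ide, Fgfbp3, Dusp1, Hspa5, Calr, Jun, Errfi1, Rhob, Atp5d and Dnah8 did not), 45 without a filter, and 59 with reads added in proportion to depth. Rhob and Dnah8 were lost under all 3 scalings, and Jun under quantile normalization too. The causes were not tested. FFPE heart and liver, with the fewest reads, limit the precision of low genes.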
